A study of Rattus norvegicus with 9 samples.

Results

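The synaptic ribbon and vesicle release machinery is described here by 38 genes, listed by name for their roles at ribbon synapses and in vesicle exocytosis, out of 26854 genes that both deposited tables hold. The list was chosen with earlier results of these data known. All 38 were present in both tables, and 35 of them had an adjusted p. Syt2, Syt5 and Rab3b had few counts and no adjusted p. The pinealocyte is the melatonin-producing cell of the pineal gland and is related to the retinal photoreceptor. It carries synaptic ribbons, plate-like scaffolds that hold synaptic vesicles near the plasma membrane, and it loads vesicles with glutamate. In vesicle release, priming factors ready a docked vesicle, SNARE proteins on the vesicle and the plasma membrane zip together, and calcium sensors trigger fusion while complexins hold and release the assembled SNAREs. Afterwards the SNARE complex is taken apart and the vesicle membrane is retrieved.

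The cells were pinealocyte cultures from pineal glands of adult Sprague-Dawley rats, dissociated with papain and kept in primary culture with fetal bovine serum. Markers of other cell types were counted as well, as given below, and the counts do not separate cell types. Every culture was transfected with 40 nM of an siRNA, a short double-stranded RNA that directs cleavage of a matching transcript, had its medium changed at 24 h and was harvested on day 3. The siNT group received a non-targeting siRNA, the siLhx4 group 1 siRNA against Lhx4, a LIM-homeodomain transcription factor, and the siBsx group 1 siRNA against Bsx, the brain-specific homeobox factor, with 3 RNA-seq libraries in each group. The comparisons ask which transcripts depend on each of these factors in these cultures. Every library comes from transfected cells, and no untransfected culture was analysed here.

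The levels are group means of normalized counts, that is, read counts divided by a size factor for each library. Values per library were not analysed here for any of the 38 genes, so the means carry no SD, and the error after ± is the standard error (SE) of the log2 fold change or difference. That SE is the authors' own for siBsx, and for siLhx4 it was worked back from the log2 fold change and its p-value. A gene is called changed when its adjusted p (DESeq2's Wald test, Benjamini-Hochberg over all genes tested) is below 0.05. The 3 libraries of a group are labelled triplicates and no label says whether each came from its own culture or animals, so the p-values measure the spread between libraries, which may be technical. Normalized counts are not per transcript length, so levels of release genes are compared between groups and not between genes. Lhx4 averaged 18816 ± 432 normalized counts (SD, n = 3) with siNT and 3535 ± 108 (SD, n = 3) with siLhx4, and Bsx had a log2 fold change of -2.27 ± 0.062 with siBsx in the authors' deposited table. With siLhx4, Bsx itself also fell by 44.8% (adjusted p = 3.23e-44), from 11835 to 6529 normalized counts, and with siBsx, Lhx4 rose by 10.5% (adjusted p = 0.0225). With 1 siRNA for each target, changes through the target and changes through other matches of that siRNA cannot be told apart.

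Pinealocyte markers were all well counted, and several neuron-defining genes were near 0. All 8 pinealocyte markers were measured, the lowest at 2191 normalized counts with siNT, while of 14 neuron markers 7 averaged under 20, among them Rbfox3, Gad1, Th and Dbh, and others were well counted, such as Map2 at 5020.3 and Nefh at 1350.4 with siNT. The summed pinealocyte markers, of which Tph1 makes up most, were 548649 normalized counts with siNT, 427965 with siLhx4 and 518411 with siBsx; 5 of the 8 fell with siLhx4 and none rose, and with siBsx 3 rose and 5 fell. The summed neuron markers were 7266, 10581 and 8723 in the same order, with 3 of 6 tested higher with siLhx4 (Map2, Nefm and Nefh) and 2 with siBsx. The sums for astrocyte, fibroblast and mural cell markers were highest with siLhx4 and lowest with siBsx, an order that not every single marker followed. Summed astrocyte markers were 10480.3, 12385 and 8626, summed fibroblast markers 2185, 3360.2 and 1748, and summed mural cell markers 7054, 9889 and 3581, in the order siNT, siLhx4 and siBsx; Myh11 alone was 6201 of the mural counts with siNT, and Tagln averaged 117 normalized counts with siNT, 107 with siLhx4 and 128 with siBsx. Microglial, endothelial and Schwann cell markers summed to 464, 681 and 1418 normalized counts with siNT, to 453, 902 and 1751 with siLhx4 and to 519, 724 and 1504 with siBsx. What these shifts contribute to the release gene results was not tested. In bulk RNA, fewer cells of a type and less RNA per cell cannot be told apart.

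With siLhx4, 16 of the 35 tested release genes changed, 12 lower and 4 higher. The largest falls were in Syt1, Cplx4 and Unc13b, the fast calcium sensor, a ribbon-synapse complexin and a priming factor, and the largest rise was in the active zone linker Rimbp2. With siBsx, 8 of 35 changed: Cplx3, Stx1a and Slc17a7 were lower, and Ctbp2, Cplx4, Stx3, Sv2b and Syn2 were higher. The background in the same tests over 14876 genes was 17.7% called with siLhx4 (8.07% higher and 9.59% lower) and 17.2% with siBsx (7.59% higher and 9.61% lower), against 45.7% and 22.9% of the release genes. Release genes had more counts behind them than most, with a median siNT level of 3451 normalized counts against 682 over all genes tested, and well-counted genes are called more often. Among genes with a mean of 1000 or more over the 3 groups, a limit set after seeing the data, 28.1% were called with siLhx4 and 28.5% with siBsx; of the 26 release genes above it, 15 (57.7%) and 7 (26.9%) were called. Among genes above that limit, the siBsx share is near the background and the siLhx4 share is above it. Counts are not matched by this limit, since the median siNT level above it was 5477 for release genes and 2492 for all genes. The release genes were also chosen with earlier results of these data known, so these shares give no independent evidence of an excess.

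The changes were modest in size: no release gene with an adjusted p changed 2-fold or more over siNT in either comparison. The median log2 fold change was -0.14 over the 35 genes with siLhx4, with 26 of them below 0, and -0.01 with siBsx, with 19 below 0, against medians of 0.0032 and 0.00020 over all genes tested. Taking direction aside, the median size of the log2 fold change was 0.19 with siLhx4 and 0.09 with siBsx, beside 0.15 over all genes in both comparisons. Among genes with a mean of 1000 or more over the 3 groups it was 0.17 and 0.08 for release genes, beside 0.11 and 0.11 for all genes. Ctbp2, Cplx3, Sv2b and Slc17a7 were called in the same direction in both comparisons, and Cplx4 and Syn2 in opposite directions; the comparisons share the siNT libraries, so the calls are not independent of each other.

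**Figure D1:**
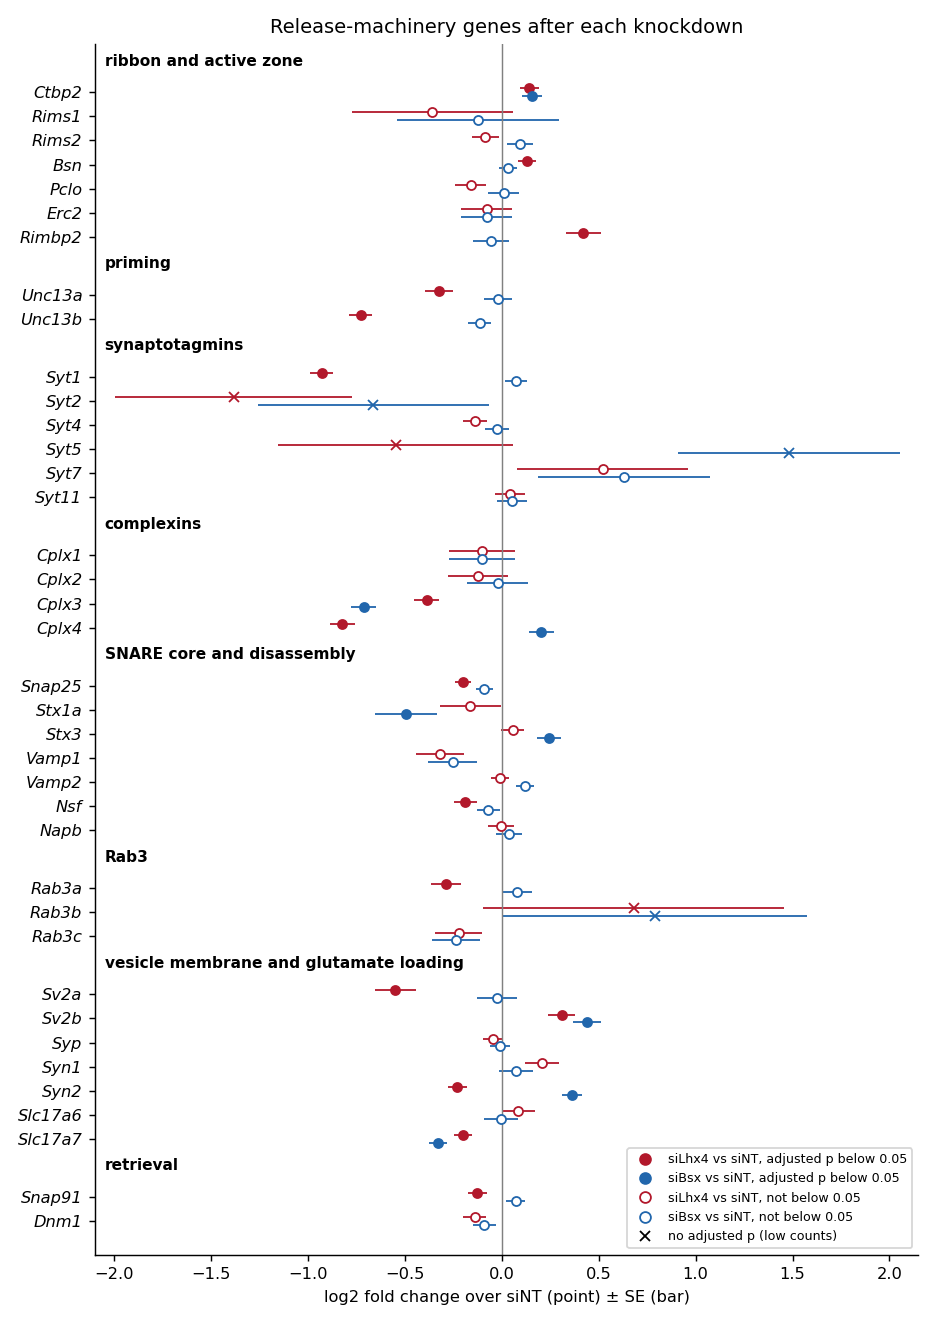
Log2 fold change over siNT (horizontal axis) of the 38 release genes, ordered by role, after siLhx4 (red) and siBsx (blue); points are the authors' estimates and bars 1 SE, filled where the adjusted p is below 0.05 and crosses where no adjusted p was given. With siLhx4 the filled points reach from -0.93 (Syt1) to 0.42 (Rimbp2), and with siBsx from -0.71 (Cplx3) to 0.44 (Sv2b).

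Among ribbon and active zone scaffolds, 3 of 7 genes rose with siLhx4 and none fell (42.9%), while 1 rose with siBsx (14.3%). Over all genes tested, 17.7% were called with siLhx4 and 17.2% with siBsx. Counts by role, here and below, are not read as an excess or a lack of calls in any role. Ctbp2, whose gene also encodes the ribbon's main structural protein RIBEYE from an alternative start, averaged 8274 normalized counts with siNT, 9132 with siLhx4 and 9197 with siBsx. Both knockdown groups lie above siNT by about the same amount, with log2 fold changes in the authors' deposited tables of 0.14 ± 0.051 with siLhx4 (adjusted p = 0.0343) and 0.15 ± 0.051 with siBsx (adjusted p = 0.0212). Counts per gene do not separate RIBEYE from the CtBP2 transcript. Bsn encodes Bassoon, which anchors ribbons to the active zone in mouse photoreceptors; it averaged 14159.8 normalized counts with siNT, 15468 with siLhx4 and 14484 with siBsx. It rose by 9.24% with siLhx4 (adjusted p = 0.0389), and its log2 fold change with siBsx was 0.03 ± 0.047 (adjusted p = 0.736) in the authors' deposited table. Without the authors' low-count filter, the adjusted p with siLhx4 is 0.0613 for Ctbp2 and 0.0694 for Bsn.

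Rimbp2 encodes a protein that links RIM scaffolds to presynaptic calcium channels, and it averaged 1411 normalized counts with siNT, 1886 with siLhx4 and 1358 with siBsx. It rose by 33.7% with siLhx4 (log2 fold change 0.42 ± 0.091 in the authors' deposited table, adjusted p = 6.44e-05) and was at -0.06 ± 0.092 with siBsx (adjusted p = 0.776). The siLhx4 group alone stands above the others. Other scaffolds did not pass the test in either comparison. Rims2, a RIM scaffold that binds Rab3 on vesicles, averaged 5947 normalized counts with siNT, 5608 with siLhx4 and 6345 with siBsx, with log2 fold changes of -0.08 and 0.09 in the authors' deposited tables. Pclo, which encodes the Bassoon relative Piccolo, averaged 4658 normalized counts with siNT, 4168 with siLhx4 and 4687 with siBsx (adjusted p = 0.164 with siLhx4). Erc2, another active zone scaffold, averaged 494 normalized counts with siNT, 467 with siLhx4 and 468 with siBsx, and Rims1 had few counts, 37.4 normalized counts with siNT, 29.1 with siLhx4 and 34.4 with siBsx, so that a log2 change of the size of its SE, 0.42, was not detectable.

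Both priming factors fell with siLhx4 and neither passed the test with siBsx. Unc13b, a Munc13 protein that opens syntaxin so that SNAREs can assemble, averaged 5085 normalized counts with siNT, 3068 with siLhx4 and 4696 with siBsx. It fell by 39.7% with siLhx4 (log2 fold change -0.73 ± 0.059 in the authors' deposited table, adjusted p = 4.62e-32), against -0.11 ± 0.059 with siBsx (adjusted p = 0.195). Its relative Unc13a averaged 2405 normalized counts with siNT, 1922 with siLhx4 and 2372 with siBsx, and fell by 20.1% with siLhx4 (log2 fold change -0.32 ± 0.072 in the authors' deposited table, adjusted p = 0.000125). With siBsx, Unc13a was at -0.02 ± 0.072 (adjusted p = 0.904). For both genes the siLhx4 mean is the low one.

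Of the synaptotagmins, the calcium sensors and related proteins of the vesicle membrane, 1 of 4 tested changed with siLhx4 and none with siBsx. That is 25.0% with siLhx4, against 17.7% over all genes tested. Syt1, the sensor of fast synchronous release, averaged 11816 normalized counts with siNT, 6197 with siLhx4 and 12424 with siBsx. Its siLhx4 mean lies well under the others: it fell by 47.6% (log2 fold change -0.93 ± 0.057 in the authors' deposited table, adjusted p = 6.39e-57), while with siBsx it was at 0.07 ± 0.057 (adjusted p = 0.456). Syt4 and Syt11 are a related pair that bind calcium poorly, and neither passed the test. Syt4 averaged 3898 normalized counts with siNT, 3542 with siLhx4 and 3825 with siBsx (adjusted p = 0.102 with siLhx4), and Syt11 averaged 2010.5 normalized counts with siNT, 2073 with siLhx4 and 2084 with siBsx. Syt7, a slower sensor with high calcium affinity, averaged 34.2 normalized counts with siNT, 49.0 with siLhx4 and 53.1 with siBsx, with SEs of 0.44 on the log2 scale in both comparisons.

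A pair of synaptotagmins had few counts and no adjusted p. Syt2, the close relative of Syt1, averaged 26.3 normalized counts with siNT, 10.1 with siLhx4 and 16.7 with siBsx, with log2 fold changes of -1.38 ± 0.61 and -0.66 ± 0.60 in the authors' deposited tables. Syt5 averaged 15.8 normalized counts with siNT, 10.8 with siLhx4 and 44.2 with siBsx, with log2 fold changes of -0.55 ± 0.61 and 1.48 ± 0.57 in the authors' deposited tables. Means over both groups in the siBsx comparison were 21.5 for Syt2 and 30.0 for Syt5. These lie above 20.8, the lowest mean there with an adjusted p, so the missing adjusted p does not follow from these means alone. Syt5 had an unadjusted p of 0.0095 with siBsx in the authors' Wald test. Neither gene was part of the adjusted test, and with so few counts no direction is read from these values.

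Complexins clamp the assembled SNAREs and promote fusion when calcium arrives; Cplx3 and Cplx4 are the forms of retinal ribbon synapses, Cplx1 and Cplx2 those of conventional synapses. The ribbon-type pair was called in both comparisons and the conventional pair, which had far fewer counts, in neither. Cplx3 averaged 16137 normalized counts with siNT, 12329 with siLhx4 and 9838 with siBsx, so that both knockdown groups lie under siNT and the siBsx group lowest. It fell by 23.6% with siLhx4 (log2 fold change -0.39 ± 0.064 in the authors' deposited table, adjusted p = 4.82e-08) and fell by 39.0% with siBsx (-0.71 ± 0.064, adjusted p = 2.55e-26). Cplx4 averaged 6929 normalized counts with siNT, 3914 with siLhx4 and 7974 with siBsx, with the siLhx4 group under siNT and the siBsx group above it. It fell by 43.5% with siLhx4 (log2 fold change -0.82 ± 0.065 in the authors' deposited table, adjusted p = 4.34e-34) and rose by 15.1% with siBsx (0.20 ± 0.065, adjusted p = 0.0133). Cplx1 averaged 404 normalized counts with siNT, 376 with siLhx4 and 376 with siBsx (adjusted p = 0.777 and 0.778), and Cplx2 averaged 275 normalized counts with siNT, 253 with siLhx4 and 272 with siBsx (adjusted p = 0.684 and 0.955). Their 95% intervals were -0.44 to 0.23 and -0.43 to 0.18 with siLhx4, and -0.44 to 0.24 and -0.33 to 0.29 with siBsx. These include the -0.39 of Cplx3 with siLhx4 and the 0.20 of Cplx4 with siBsx. Changes of that size could have been missed in the conventional pair. The intervals exclude falls as large as those of Cplx4 with siLhx4 and Cplx3 with siBsx.

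The promoter sequences of Syt1 and Cplx4, which had the lowest log2 fold changes with siLhx4 among the 35 tested genes, and of Cplx3, which had the lowest with siBsx among them, are shown because a homeodomain factor can act on such regions. They are from RefSeq on build GRCr8, run 5′ to 3′ on the gene's strand from 250 bases before to 50 bases after the annotated start, and lie at chr7:46244164-46244463, chr18:61767705-61768004 and chr8:66906151-66906450, each on the minus strand. Capitals mark a match to TAATCC, the core bound by the CRX and OTX homeodomain factors, on either strand. No match to TAATTA, a core bound by many homeodomain proteins including LIM-homeodomain factors, is in these windows; TAATTA reads the same on both strands and shares its first letters with TAATCC.
Syt1: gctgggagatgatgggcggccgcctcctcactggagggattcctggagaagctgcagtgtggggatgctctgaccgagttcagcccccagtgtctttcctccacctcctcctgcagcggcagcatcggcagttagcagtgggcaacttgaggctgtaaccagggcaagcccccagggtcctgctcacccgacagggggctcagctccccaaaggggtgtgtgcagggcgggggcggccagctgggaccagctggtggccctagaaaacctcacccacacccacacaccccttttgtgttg
Cplx4: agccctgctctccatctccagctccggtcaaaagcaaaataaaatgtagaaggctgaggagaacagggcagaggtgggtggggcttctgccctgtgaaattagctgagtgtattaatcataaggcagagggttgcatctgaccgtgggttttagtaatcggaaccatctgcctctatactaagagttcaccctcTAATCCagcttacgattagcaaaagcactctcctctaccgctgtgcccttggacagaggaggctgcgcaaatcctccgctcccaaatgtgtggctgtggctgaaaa
Cplx3: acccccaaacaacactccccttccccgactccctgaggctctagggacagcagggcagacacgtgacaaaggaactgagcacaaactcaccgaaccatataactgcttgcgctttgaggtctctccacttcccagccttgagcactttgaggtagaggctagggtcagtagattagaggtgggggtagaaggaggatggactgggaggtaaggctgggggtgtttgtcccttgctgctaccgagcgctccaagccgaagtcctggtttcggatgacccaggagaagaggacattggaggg
Of the 38 genes, 31 had a single promoter entry. Of these 31, none holds TAATTA, against 5.36% of 33469 rat promoters of the same length, and 2 (6.45%) hold TAATCC on either strand, against 7.17%: Cplx4, where its first base is at position -56 from the annotated start, and Ctbp2, where it is on the other strand at position -120. The release gene promoters had a median GC content of 63.0%, against 51.7% over all promoters. A match describes the letters of the window and no binding was measured.

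**Figure D2:**
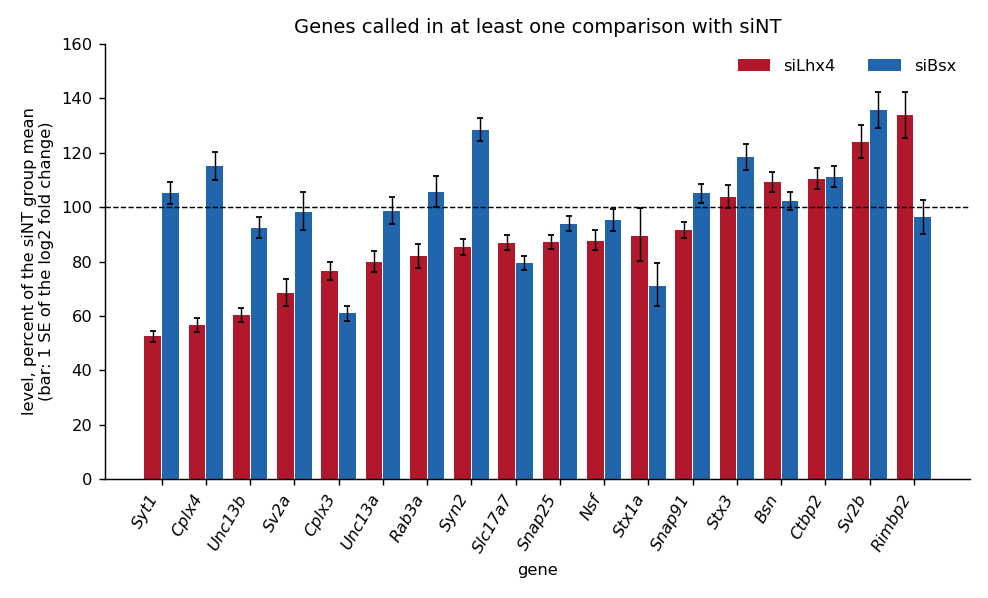
Level after siLhx4 (red bars) and siBsx (blue bars) as a percent of the siNT group mean (dashed line at 100) for the 18 release genes called in at least one comparison, ordered by the siLhx4 level; error bars are 1 SE of the log2 fold change. Syt1, Cplx4 and Unc13b have the lowest siLhx4 bars, Cplx3 and Stx1a the lowest siBsx bars, and Cplx4 and Syn2 lie on opposite sides of the line.

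Of the SNARE core and its disassembly factors, 2 of 7 fell with siLhx4, and 1 rose and 1 fell with siBsx. Each count is 28.6% of the 7, against 17.7% (siLhx4) and 17.2% (siBsx) over all genes tested. Snap25, a plasma membrane SNARE, averaged 45924 normalized counts with siNT, 39996 with siLhx4 and 43125 with siBsx, and fell by 12.9% with siLhx4 (log2 fold change -0.20 ± 0.042 in the authors' deposited table, adjusted p = 4.11e-05). Nsf, the ATPase that takes SNARE complexes apart, averaged 10927 normalized counts with siNT, 9586 with siLhx4 and 10407 with siBsx, and fell by 12.3% with siLhx4 (-0.19 ± 0.060 in the authors' deposited table, adjusted p = 0.0118). For both genes the siBsx mean lies between the others and did not pass the test (adjusted p = 0.134 and 0.505). Napb, which recruits Nsf to the complex, averaged 2312 normalized counts with siNT, 2307 with siLhx4 and 2367 with siBsx.

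The syntaxins are the partners of Snap25 on the plasma membrane, and both listed here passed the test with siBsx and not with siLhx4. Stx3, the syntaxin of retinal ribbon synapses, averaged 3451 normalized counts with siNT, 3585 with siLhx4 and 4082 with siBsx, and rose by 18.3% with siBsx (log2 fold change 0.24 ± 0.060 in the authors' deposited table, adjusted p = 0.000620; adjusted p = 0.618 with siLhx4). Stx1a, the syntaxin of conventional synapses, averaged 312 normalized counts with siNT, 278 with siLhx4 and 221 with siBsx, and fell by 29.0% with siBsx (-0.49 ± 0.16 in the authors' deposited table, adjusted p = 0.0158; adjusted p = 0.559 with siLhx4). The difference between the knockdowns passed its own test for Stx3 (adjusted p = 0.0102) and missed it for Stx1a (adjusted p = 0.133). Of the vesicle SNAREs, Vamp2 averaged 10633 normalized counts with siNT, 10552 with siLhx4 and 11546 with siBsx and Vamp1 806 normalized counts with siNT, 645 with siLhx4 and 677 with siBsx. Vamp1 lies near the threshold with siLhx4: its log2 fold change in the authors' deposited table was -0.32 ± 0.12 (adjusted p = 0.0543), and its adjusted p is 0.0470 when only genes with a mean of at least 100 are adjusted together.

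Rab3 GTPases sit on vesicles and bind RIM scaffolds. Rab3a averaged 2261 normalized counts with siNT, 1852 with siLhx4 and 2389 with siBsx, and fell by 18.1% with siLhx4 (log2 fold change -0.29 ± 0.077 in the authors' deposited table, adjusted p = 0.00222), against 0.08 ± 0.077 with siBsx (adjusted p = 0.583). Rab3c averaged 610.1 normalized counts with siNT, 522 with siLhx4 and 518 with siBsx (adjusted p = 0.216 and 0.196). Rab3b, at 7.76 normalized counts with siNT, 12.4 with siLhx4 and 13.4 with siBsx, had no adjusted p.

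Of the vesicle membrane and glutamate loading genes, 1 of 7 rose and 3 fell with siLhx4, and 2 rose and 1 fell with siBsx. The shares called were 57.1% and 42.9%, against 17.7% and 17.2% over all genes tested. The SV2 proteins, transporter-like glycoproteins of the vesicle, went in different directions. Sv2a averaged 731 normalized counts with siNT, 499 with siLhx4 and 717 with siBsx, and fell by 31.7% with siLhx4 (log2 fold change -0.55 ± 0.10 in the authors' deposited table, adjusted p = 3.06e-06; adjusted p = 0.917 with siBsx). Sv2b averaged 2218 normalized counts with siNT, 2747 with siLhx4 and 3006 with siBsx, and rose by 23.8% with siLhx4 (0.31 ± 0.070 in the authors' deposited table, adjusted p = 0.000178) and by 35.6% with siBsx (0.44 ± 0.071, adjusted p = 1.54e-08). Both knockdown groups lie above siNT for Sv2b, whereas for Sv2a the siLhx4 group alone is low.

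Syn2 encodes a synapsin, which tethers vesicles in reserve, and averaged 4549 normalized counts with siNT, 3881 with siLhx4 and 5847 with siBsx. As for Cplx4, siNT lies between the knockdown groups: Syn2 fell by 14.7% with siLhx4 (log2 fold change -0.23 ± 0.050 in the authors' deposited table, adjusted p = 6.47e-05) and rose by 28.5% with siBsx (0.36 ± 0.049, adjusted p = 9.48e-12). Syn1, the other synapsin listed, averaged 1319 normalized counts with siNT, 1524 with siLhx4 and 1389 with siBsx (adjusted p = 0.0804 and 0.662). Syp, which encodes the abundant vesicle protein synaptophysin, averaged 17284 normalized counts with siNT, 16760.3 with siLhx4 and 17152 with siBsx, a log2 fold change of -0.04 with siLhx4 and -0.01 with siBsx in the authors' deposited tables.

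Slc17a7 and Slc17a6 encode vesicular glutamate transporters. Slc17a7 averaged 13796 normalized counts with siNT, 11998 with siLhx4 and 10965 with siBsx, and fell by 13.0% with siLhx4 (log2 fold change -0.20 ± 0.045 in the authors' deposited table, adjusted p = 0.000145) and fell by 20.5% with siBsx (-0.33 ± 0.046, adjusted p = 1.78e-11). Slc17a6 averaged 3365 normalized counts with siNT, 3571 with siLhx4 and 3357 with siBsx, with no call in either comparison (adjusted p = 0.586 and 0.987). For vesicle retrieval, Snap91, a clathrin assembly protein that sorts vesicle SNAREs, averaged 5869 normalized counts with siNT, 5374 with siLhx4 and 6166 with siBsx, and fell by 8.44% with siLhx4 (-0.13 ± 0.048 in the authors' deposited table, adjusted p = 0.0457; 0.0812 without the low-count filter). Dnm1, the dynamin that pinches off endocytic vesicles, averaged 7064 normalized counts with siNT, 6408 with siLhx4 and 6632 with siBsx (adjusted p = 0.0788 and 0.338).

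**Figure D3:**
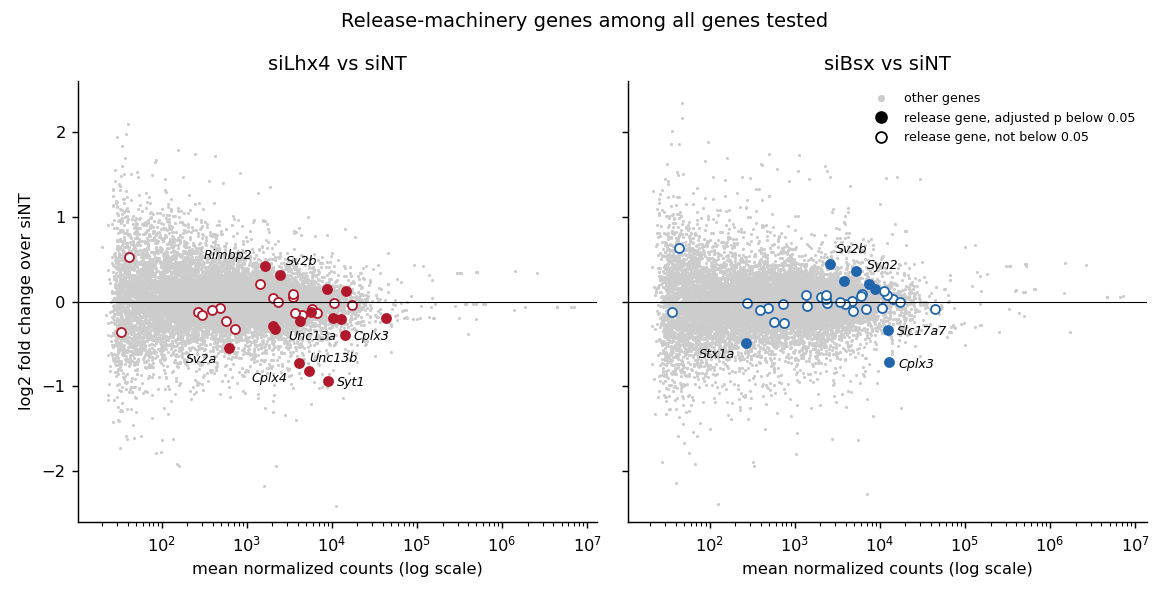
Log2 fold change over siNT (vertical axis) against the authors' mean of normalized counts over both groups (horizontal axis, log scale) for all genes tested (grey) and the 35 tested release genes (coloured, filled where called); called release genes beyond 0.3 in size are named. Most release genes lie to the right, among well-counted genes, and Syt1, Cplx4, Unc13b and, with siBsx, Cplx3 are the lowest of them.

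The difference between the knockdowns was tested directly, by a Wald test rebuilt from both deposited tables in which the shared siNT libraries cancel. Of the 35 release genes, 15 differed, 12 higher and 3 lower with siBsx than with siLhx4, or 42.9%, against 22.7% of all genes (10.8% higher and 11.9% lower). Above a mean of 1000 normalized counts the share was 14 of 26 (53.8%), against 34.7% of all such genes. As in the comparisons with siNT, release genes above this limit had the higher median level, and their list was chosen with earlier results known. This test uses the same siLhx4 and siBsx libraries as the comparisons with siNT, so it is not independent of them. Among genes called against siNT, Nsf (log2 difference 0.12 ± 0.060, adjusted p = 0.148, 95% interval 0.0018 to 0.24), Bsn (-0.09 ± 0.047, adjusted p = 0.141), Stx1a (-0.33 ± 0.16, adjusted p = 0.133), Sv2b (0.13 ± 0.070, adjusted p = 0.184) and Ctbp2 (0.01 ± 0.051, adjusted p = 0.924) did not pass it. Rims2 and Vamp2 were called in neither comparison with siNT and differed here, by 0.18 ± 0.069 (adjusted p = 0.0449) and 0.13 ± 0.047 (adjusted p = 0.0271) on the log2 scale.

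Cplx4 and Syt1 had the largest differences, 2.04-fold and 2.00-fold higher with siBsx than with siLhx4. On the log2 scale these are 1.03 ± 0.065 (adjusted p = 2.69e-53) and 1.00 ± 0.057 (adjusted p = 1.91e-66). Unc13b was 1.53-fold higher with siBsx (0.61 ± 0.060, adjusted p = 7.74e-23), Syn2 1.51-fold (0.59 ± 0.050, adjusted p = 7.80e-31) and Sv2a 1.44-fold (0.52 ± 0.11, adjusted p = 9.15e-06). These are genes of the calcium trigger, the SNARE clamp, priming and the vesicle membrane. Smaller differences in the same direction were found for Rab3a (0.37 ± 0.078, adjusted p = 3.20e-05), Unc13a (0.30 ± 0.073, adjusted p = 0.000324), Snap91 (0.20 ± 0.048, adjusted p = 0.000367) and Snap25 (0.11 ± 0.042, adjusted p = 0.0450).

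Rimbp2, Cplx3 and Slc17a7 were lower with siBsx than with siLhx4, by -0.47 ± 0.091 (adjusted p = 3.13e-06), -0.33 ± 0.065 (adjusted p = 6.70e-06) and -0.13 ± 0.046 (adjusted p = 0.0237) on the log2 scale. Cplx3 and Slc17a7 fell in both comparisons, and more with siBsx. Sv2b, which rose in both, did not pass the test of the difference (0.13 ± 0.070, adjusted p = 0.184, 95% interval -0.0070 to 0.27), nor did Ctbp2 (0.01 ± 0.051, adjusted p = 0.924, 95% interval -0.09 to 0.11). For Syp, which was called nowhere, the interval of the difference was -0.07 to 0.13.

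**Figure D4:**
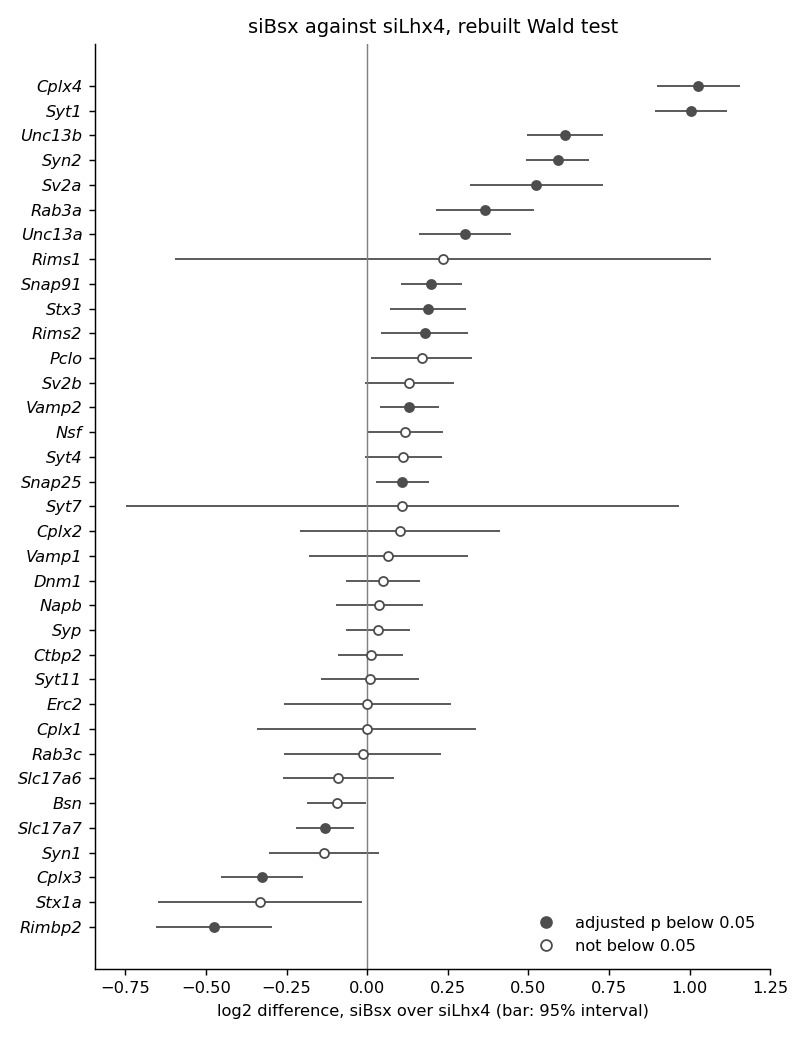
Log2 difference between siBsx and siLhx4 (horizontal axis; above 0 is higher with siBsx) for the 35 tested release genes in order of size, with 95% intervals, filled where the adjusted p is below 0.05. Cplx4 and Syt1 stand apart near 1 and Rimbp2 is lowest at -0.47, while Rims1 and Syt7 have the widest intervals.

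The calls depend on the distribution against which the Wald statistic is read, which is normal in the authors' test. Read against a t distribution with 6 degrees of freedom, 5 release genes remained called with siLhx4 (Unc13b, Syt1, Cplx3, Cplx4 and Sv2a), 4 with siBsx (Cplx3, Sv2b, Syn2 and Slc17a7) and 8 between the knockdowns (Rimbp2, Unc13b, Syt1, Cplx3, Cplx4, Rab3a, Sv2a and Syn2). With 4 degrees of freedom none was called against siNT, although 13 and 8 had an unadjusted p under 0.05, and Unc13b, Syt1, Cplx4 and Syn2 remained called between the knockdowns.

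Beyond the 38 genes, 109 other genes of release and retrieval were listed by role, of which 107 were in the tables and 90 were tested. With siLhx4, 8 rose and 11 fell (21.1%), and with siBsx, 10 rose and 12 fell (24.4%), against the background of 17.7% and 17.2%; their median log2 fold changes were -0.0093 and -0.04. Between the knockdowns, 10 were higher and 15 lower with siBsx (27.8%), against 22.7% of all genes tested (10.8% higher and 11.9% lower). Among 11 other SNARE proteins and their disassembly factors, 2 rose with siLhx4 and none fell (18.2%), and 1 rose and 2 fell with siBsx (27.3%). Napa and Napg, which encode other SNAPs that recruit Nsf, were those that rose with siLhx4 (0.24 ± 0.068 and 0.25 ± 0.073 in the authors' deposited table, adjusted p = 0.00365 and 0.00668), and Napg was also the one that rose with siBsx (0.22 ± 0.073, adjusted p = 0.0210). Stx4, a syntaxin of general exocytosis at the plasma membrane, averaged 2179 normalized counts with siNT, 2316 with siLhx4 and 1689 with siBsx, and fell by 22.5% with siBsx (-0.37 ± 0.070 in the authors' deposited table, adjusted p = 3.65e-06).

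Of 13 other vesicle membrane genes, 1 rose and 3 fell with siLhx4, and 1 rose and 2 fell with siBsx. The shares called were 30.8% and 23.1%, against 17.7% and 17.2% over all genes tested. Scamp5, a carrier membrane protein of synaptic vesicles, averaged 1950.3 normalized counts with siNT, 1198 with siLhx4 and 1447 with siBsx, and fell in both comparisons (-0.70 ± 0.071, adjusted p = 7.88e-21; -0.43 ± 0.071, adjusted p = 4.72e-08 in the authors' deposited tables). Syngr3, a synaptogyrin of the vesicle membrane, averaged 607 normalized counts with siNT, 429 with siLhx4 and 307 with siBsx, and fell in both as well (-0.50 ± 0.13, adjusted p = 0.00141; -0.99 ± 0.13, adjusted p = 1.11e-11 in the authors' deposited tables). Sypl1, a synaptophysin relative, rose with siLhx4 (0.42 in the authors' deposited table, adjusted p = 0.00646), and Dnajc5, a vesicle chaperone, rose with siBsx (0.42, adjusted p = 1.40e-06).

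Of 23 other retrieval genes, 3 rose and 5 fell with siLhx4, and 4 rose and 3 fell with siBsx. The shares called were 34.8% and 30.4%, against 17.7% and 17.2% over all genes tested. The clathrin light chains moved apart: Cltb averaged 4231 normalized counts with siNT, 2811 with siLhx4 and 2645 with siBsx, and fell with both (-0.59 ± 0.081, adjusted p = 2.05e-11; -0.68 ± 0.082, adjusted p = 7.23e-15 in the authors' deposited tables), while Clta rose with siLhx4 (0.24 in the authors' deposited table, adjusted p = 0.000534) and with siBsx (0.15, adjusted p = 0.0488). Dnm2, the widely expressed dynamin, fell by 16.2% and 18.9% (adjusted p = 2.01e-07 and 2.94e-10). With siLhx4, the clathrin heavy chain Cltc and the endocytic scaffold Itsn2 also fell (-0.23 and -0.25 in the authors' deposited table, adjusted p = 6.08e-06 and 8.29e-05), and the clathrin adaptor Picalm rose (0.26, adjusted p = 7.15e-05). With siBsx, Dnajc6 and Synj1, which take part in clathrin uncoating, rose (0.38 and 0.19 in the authors' deposited table, adjusted p = 1.35e-05 and 0.00113).

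Of 30 other priming, docking and SNARE control genes, 2 rose and 2 fell with siLhx4, and 4 rose and 3 fell with siBsx. The shares called were 13.3% and 23.3%, against 17.7% and 17.2% over all genes tested. Snph, which encodes syntaphilin, and Ppfia4, a liprin of the active zone, rose with siBsx (0.29 and 0.44 in the authors' deposited table, adjusted p = 1.57e-05 and 3.94e-05). Of 8 other synaptotagmins and calcium sensors, none passed the test with siLhx4 (1 had an unadjusted p under 0.05) and 1 fell with siBsx. It was Syt3, at -1.11 ± 0.36 in the authors' deposited table (adjusted p = 0.0152), named here after its value was seen. Syt3 had few counts, with a mean of 56.7 normalized counts over siNT and siBsx. Of 5 ribbon partners, Unc119, a photoreceptor synaptic protein that binds RIBEYE, is named after its values were seen; it averaged 4275 normalized counts with siNT, 3466 with siLhx4 and 3435 with siBsx, and fell in both comparisons (-0.30 ± 0.076, adjusted p = 0.000889; -0.31 ± 0.076, adjusted p = 0.000510 in the authors' deposited tables).

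**Figure D5:**
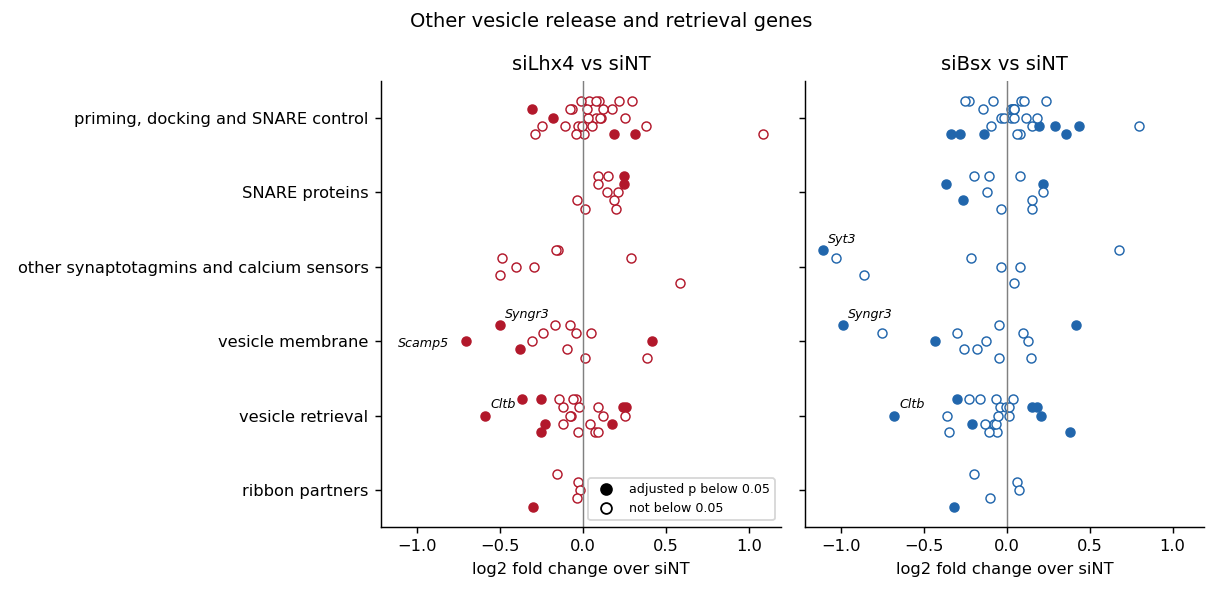
Log2 fold change over siNT (horizontal axis) of the 90 tested genes of the wider release and retrieval lists, by role (vertical axis), with siLhx4 (left) and siBsx (right); each point is 1 gene, filled where the adjusted p is below 0.05, and called genes beyond 0.45 in size are labelled. Cltb, Syngr3 and Scamp5 are below 0 in both panels. With siBsx, Syt3, which had few counts, is the lowest at -1.11, and Syngr3 reaches -0.99.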

How the data were processed

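The 38 release genes and the other gene lists were chosen with earlier results of these data known. Per the labels' protocols, ribosomal RNA was depleted and libraries were made with a stranded total RNA kit. Per the submitters' processing notes, the tools were STAR 2.5.4a, bcl2fastq 2.20.0.422, DESeq2 1.16.1, and featureCounts with Subread 1.5.2, on genome build rn6. The annotation, whether counting used strand and what was done with reads matching more than one gene are not given in the sources used here. Reads shared with overlapping, antisense or similar genes cannot be told apart. The depth of each library is unknown, since no raw counts were analysed here.

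Per the file legends, each knockdown has its own deposited table of comparisons with siNT. Its signal column, deposited by the authors, is the mean of normalized counts over the libraries of both groups. The log2 columns deposited by the authors are log2 fold changes and, for siBsx, also standard errors. The score column the authors deposited for siBsx is the Wald statistic. The authors' p-value columns hold raw p-values and Benjamini-Hochberg adjusted ones, the latter for 14876 genes, the lowest mean among them being 19.8 (siLhx4) or 20.8 (siBsx) normalized counts. Normalized counts per library were deposited by the authors for 14 genes, none of them among the 38.

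Group means were computed with Python 3.11.15, numpy 2.4.6, pandas 2.3.3 and scipy 1.17.1 from the mean and the log2 fold change. They differed by at most 0.292% from the means of those 14 genes, and the siNT means from the 2 tables differed by at most 0.422% over the tested release genes. The siLhx4 standard error was obtained by dividing each log2 fold change by the normal quantile that matches its p-value. For siBsx against siLhx4, a Wald test was rebuilt with a dispersion per gene from the siBsx standard error, adjusted over 14876 genes and tested on simulated data. The test was given the same dispersions from which the simulated counts were drawn. The simulation therefore could not check errors in the dispersions. All 38 are named. Of the other release genes, the 5 with the smallest adjusted p in each direction and comparison are named; any other named gene is marked as chosen after its values were seen. Tspoap1 was matched through its older symbol, 2 of the 109 genes had no match in both tables, and 1 further gene is not reported here. Promoters come from RefSeq (GRCr8), where 6 of the 38 have no entry and 1 has several. Other settings tried were other thresholds, low-count filters, a t reference, centring on the median of all genes and other errors of the difference.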

Additional observations from a re-analysis of the deposited data

Results flagged for a closer look

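A few genes changed in opposite directions after the knockdowns, with the difference itself past the threshold (rebuilt Wald test, Benjamini-Hochberg over 14876 genes). For genes called in opposite directions the difference is larger than either change, with an SE of about the same size. Passing the test of the difference therefore adds no separate evidence for them. Cplx4 was 1.03 higher on the log2 scale with siBsx than with siLhx4, and Syn2 0.59 higher. Among the other release genes, Lin7c, which encodes a presynaptic scaffold protein and was chosen after its values were seen, differed the other way, by -0.47. Lin7c averaged 2009 normalized counts with siNT, 2290.4 with siLhx4 and 1656 with siBsx (adjusted p = 5.52e-10 for the difference). Against a t distribution with 6 degrees of freedom, neither the siBsx rise of Cplx4 nor the siLhx4 fall of Syn2 stayed called. The siLhx4 fall of Cplx4, the siBsx rise of Syn2 and the differences of both genes did.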

How the results depend on the processing

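Centring on the median of all genes moved each log2 fold change by 0.0032 with siLhx4 and 0.00020 with siBsx, and the other settings leave these values as they are, so their directions say nothing of stability. The t reference with 4 degrees of freedom left 0 of the 38 release genes called with siLhx4, 0 with siBsx and 4 between the knockdowns, and of all genes 1, 36 and 291; of the other release genes it left 0 (18 at an unadjusted p under 0.05) with siLhx4 and 0 (20) with siBsx. With 6 degrees of freedom the counts were 5, 4 and 8 of the 38, 699, 795 and 1307 of all genes, and 4 and 8 of the other release genes. Requiring a change of at least 1.5-fold as well left 3 of the 38 with siLhx4 (Unc13b, Syt1 and Cplx4) and 1 with siBsx (Cplx3), 552 and 555 of all genes, and 2 and 3 of the other release genes. At an adjusted p of 0.01, 5 of the 38 were called with siBsx. This count, and those given below for the low-count filters, are not set against all genes. They therefore do not compare release genes with the background. Treating the errors of both tables as independent gave 1645 of all genes and 10 of the 38 between the knockdowns, without Rims2, Snap25, Stx3, Vamp2 and Slc17a7. Limiting to means of 1000 or more over the 3 groups, an alternative added after seeing the data, left 1714 of all genes with siLhx4 and 2116 between the knockdowns. Other counts of the 38 genes and their medians stayed within 1.5 times or 1 SE: 13 called without the low-count filter with siLhx4, 17 at a mean of at least 100, and 16, 8 and 15 after centring on the median of all genes. No paired analysis was possible because values per library of these genes were not analysed here, and for the same reason no library was left out in turn. Genes with few counts (Rims1, Syt2, Syt5, Syt7 and Rab3b) allow no statement on changes of the size seen elsewhere.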
